A study of Rattus norvegicus with 9 samples.

Results

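Heat shock proteins and chaperones bind unfolded or partly folded proteins and help them fold, refold after stress or move on to degradation. Hsf1 is the transcription factor that switches many of their genes on when unfolded proteins build up, by binding heat shock elements, which are inverted repeats of GAA units. In the cytosol HSP70 works with J-domain co-chaperones (DNAJ), which deliver clients and start its ATP cycle, and passes steroid receptors, among other clients, to HSP90. In the uterus, whose cells grow and regress under oestrogen and progesterone, the HSP70 and HSP90 machines are known for holding the steroid receptors ready for hormone, and small heat shock proteins are abundant in smooth muscle.

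The genes were chosen by symbol. They are the genes whose array symbol is Hspa, Hspb, Hspd, Hspe or Hsph with a number, begins with Hsp90 or Dnaj, or belongs to the cytosolic chaperonin CCT (Tcp1 and the Cct genes), with Bag3, Stip1 and Hsf1 and without Hspa5. This gave 72 genes of 14217 with a probe set that carried 1 symbol, and 67 of the 72 were among the 10973 genes tested after a filter on dim probe sets. The 67 were 10 HSP70 genes, 5 small heat shock protein genes, 2 HSP90 genes, 4 DNAJA, 10 DNAJB and 23 DNAJC genes, 8 CCT genes, the 2 genes of the mitochondrial chaperonin, and Hsf1, Bag3 and Stip1. The other 5 (Dnajb13, Dnajb7, Hspa1l, Hspb3 and Hspb9) lay under the filter in all 9 arrays, with intensities of at most 12.3. The set is wider than a cytosolic one. It also takes in Hsp90b1, Hspa13, Dnajb9, Dnajb11, Dnajc1, Dnajc3 and Dnajc10 of the endoplasmic reticulum and Hspa9, Hspd1, Hspe1, Dnaja3, Dnajc15 and Dnajc19 of the mitochondrion. Hsp90aa1, Hspa8 and Hspa1b were carried only by probe sets with several symbols and were not analysed as genes here.

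The arrays measured total RNA of uterine tissue from female rats in 3 groups of 3 arrays. Treatment rats (arrays 31, 32 and 33) had electroacupuncture at the Guanyuan and Sanyinjiao points for 15 min a session on 7 days running and during the induction of ovulation that followed, with an intraperitoneal 0.5 U of pregnant mare serum gonadotropin (PMSG) per rat and, 48 h later, the same amount of human chorionic gonadotropin (hCG). Model rats (arrays 21, 22 and 23) had the PMSG and hCG induction alone, and control rats (arrays 41, 42 and 43) had neither. The labels give 18 rats, 6 per group, without saying whether an array holds 1 rat, so p-values measure the spread between these arrays, which may be technical in part. Treatment and model rats share the gonadotropins, no group had needling alone, and the stage of the oestrous cycle of the control rats is not given.

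Median intensities of the arrays were 23.56 to 24.02. Markers of smooth muscle and epithelium were present, with desmin and smooth muscle myosin (Myh11) and the epithelial keratins measured in every array. Control 43 stood apart from the other 2 controls: the summed intensity of 11 epithelial markers ranged from 4635 to 18970 over the controls, with the lowest in control 43, and C3, an oestrogen-induced complement gene, measured 13.2 in control 43 against 5116 and 4301 in controls 41 and 42. Calls that changed without control 43 are therefore given as well. Model 21 differed from the other 2 model arrays in C3, at 115.9 against 1581 and 1733, and several values are given without it as well. In whole tissue, fewer cells of a type and less RNA per cell cannot be told apart.

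Promoter sequences show which of these genes carry the element that Hsf1 binds close to their start. Of the 72 genes, 60 were matched by symbol to a RefSeq promoter window of the rat assembly GRCr8, which runs from 250 bases before the start to 50 after it. Both strands were searched for heat shock elements of 2 units (GAANNTTC or TTCNNGAA) and of 3 units, in which a further GAA or TTC follows after NN so that the units alternate, with overlaps allowed and a 3-unit element counted also as 2-unit ones. A 2-unit element lay in 19 of the 60 windows (31.7%), against 15.4% of all 27457 windows, and a 3-unit element in 5 of the 60 (8.33%), against 0.736% of all. The 5 were those of Hsph1, Dnaja1, Hspd1, Hspe1 and Cct4. The windows of Hspd1 and Hspe1 overlap and hold the same elements, so these counts take in the same site for both genes. CCAAT lay in 45% of the 60 windows against 37.7% of all, and TATAAA in 10% against 14.3%. A match describes letters only and does not show that a factor binds there. The windows printed here 5′ to 3′, with the letters of every 2-unit or 3-unit element in capitals, are those of genes described below. Hsph1, Dnaja1 and Bag3 were lower in treatment than in model arrays, and Hspb1 was higher in both induced groups than in controls. None of these differences reached an adjusted p under 0.05. Hspe1, with its neighbour Hspd1, carried 2 overlapping 3-unit elements and differed little between the groups. Any link of the elements to these differences was not tested.
Hsph1, GRCr8 chr12:10427118-10427417, plus strand: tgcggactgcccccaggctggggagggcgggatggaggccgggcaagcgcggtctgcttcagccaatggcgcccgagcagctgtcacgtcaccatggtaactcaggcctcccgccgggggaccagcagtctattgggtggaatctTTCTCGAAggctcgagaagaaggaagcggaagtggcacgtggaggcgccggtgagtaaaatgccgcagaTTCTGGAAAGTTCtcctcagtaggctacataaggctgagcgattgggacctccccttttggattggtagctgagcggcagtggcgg
Dnaja1, GRCr8 chr5:60638154-60638453, plus strand: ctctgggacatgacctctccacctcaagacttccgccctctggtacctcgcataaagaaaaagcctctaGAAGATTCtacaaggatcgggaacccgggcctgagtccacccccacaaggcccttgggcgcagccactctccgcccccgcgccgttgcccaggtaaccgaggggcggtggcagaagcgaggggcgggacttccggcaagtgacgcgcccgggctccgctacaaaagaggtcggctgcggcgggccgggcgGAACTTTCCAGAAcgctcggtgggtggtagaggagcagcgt
Bag3, GRCr8 chr1:192533210-192533509, plus strand: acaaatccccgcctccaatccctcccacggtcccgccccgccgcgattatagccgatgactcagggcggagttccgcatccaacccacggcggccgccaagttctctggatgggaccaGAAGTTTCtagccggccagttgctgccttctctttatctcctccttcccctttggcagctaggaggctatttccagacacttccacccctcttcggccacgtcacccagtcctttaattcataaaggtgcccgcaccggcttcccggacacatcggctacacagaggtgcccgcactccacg
Hspb1, GRCr8 chr12:26432252-26432551, minus strand: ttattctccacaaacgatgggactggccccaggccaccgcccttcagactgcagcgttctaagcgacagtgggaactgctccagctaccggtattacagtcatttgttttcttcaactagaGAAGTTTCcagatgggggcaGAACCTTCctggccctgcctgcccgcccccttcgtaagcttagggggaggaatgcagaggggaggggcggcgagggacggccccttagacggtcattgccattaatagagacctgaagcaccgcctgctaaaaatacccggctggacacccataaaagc
Hspe1, GRCr8 chr9:64084077-64084376, plus strand: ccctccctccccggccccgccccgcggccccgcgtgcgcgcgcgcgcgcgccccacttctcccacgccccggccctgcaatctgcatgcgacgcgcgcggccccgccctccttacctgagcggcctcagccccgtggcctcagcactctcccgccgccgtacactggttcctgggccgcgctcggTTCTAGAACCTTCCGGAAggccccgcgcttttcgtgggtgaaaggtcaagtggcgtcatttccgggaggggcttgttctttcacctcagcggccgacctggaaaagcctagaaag

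The Hspe1 and Hspd1 genes lie head to head, and their windows share 211 bases with the same 3 overlapping elements, read from opposite strands. Counted from the start of transcription, the capitals begin at -65 in Hspe1, at -105 and -36 in Hsph1, at -181 and 10 in Dnaja1, at -132 in Bag3 and at -129 and -109 in Hspb1. Dnajb1 and Hspb1 each had 2 separate 2-unit elements, Bag3, Stip1, Hspa2 and Hspb8 had 1 each, and no such letters lay in the window of Hspa1a. That window lies downstream of the Hspa1l start, which is on the opposite strand. Only 1 window per gene was searched, so elements at any other start of Hspa1a would be missed.

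Across the whole set, few genes differed between the groups beyond the spread of the arrays. In treatment against control arrays 1 of 67 tested genes rose and none fell at an adjusted p under 0.05, where 0.51% of all genes tested passed in either direction. That gene, Dnajb3, was dim and entered the test through the treatment arrays. Its call was lost in most fits that left out 1 array, as described below. In model against control arrays 0 of 67 passed, with 0.0273% of all genes passing, and in treatment against model arrays 0 of 67 passed, with 0% of all genes passing (limma on log2(intensity + 16), with Benjamini-Hochberg adjustment over 10973 genes). At the looser level of an unadjusted p under 0.05, treatment arrays had 6 genes above and 9 below the control arrays, where 6.54% and 10.8% of all genes were. In model against control arrays 4 were higher and 4 lower, beside 6.37% and 6.08% of all genes, and in treatment against model arrays 2 were higher and 7 lower, beside 4.57% and 10.1%. The shares of the 67 were thus near those of all genes in each comparison.

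The median log2 fold change of the 67 genes was -0.01 in treatment against control arrays, 0.04 in model against control arrays and -0.02 in treatment against model arrays. The medians of all 10973 genes were -0.04, 0.02 and -0.05 in the same comparisons. Groups did not overlap for 6 higher and 19 lower genes in treatment against control arrays, which is 8.96% and 28.4% of the 67, beside 9.4% and 13.9% of all genes. They did not overlap for 7 higher and 5 lower genes in model against control arrays, beside 7.79% and 6.73%, and for 4 higher and 14 lower genes in treatment against model arrays, beside 8.1% and 19.9%. Another scaling of the arrays changed these counts. After quantile normalization 10 genes were higher and 12 lower without overlap in treatment against control arrays, which is 14.9% and 17.9% of the 67, beside 13.6% and 8.6% of all genes. In treatment against model arrays 14 were then higher and 7 lower, which is 20.9% and 10.4%, beside 13.5% and 11.8% of all genes. At an unadjusted p under 0.05, that scaling gave 11 higher (16.4%) and 5 lower (7.46%) genes in treatment against control arrays, beside 9.59% and 6.7% of all genes. Against model arrays it gave 5 higher (7.46%) and 4 lower (5.97%), beside 6.99% and 5.55%. Without model 21, 0 genes were lower and 6 higher in model against control arrays at that level. The shares of all genes in that fit are not given here, so these counts do not describe a shift of the set. The median log2 fold change was then 0.04 for the 67 genes and 0.02 for all genes, as with all arrays.

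Without control 43, 2 genes rose and 3 fell in treatment against the other 2 control arrays (Dnajb3 and Dnajc27 higher, Dnaja4, Dnajb1 and Dnajc3 lower), and 1 rose and 2 fell in model arrays (Dnajc8 higher, Dnajc3 and Dnajc22 lower). All genes passed more often as well, at 6.56% in treatment and 12.6% in model against those 2 controls. Each comparison with the controls uses the same control arrays, so the treatment and model values against control are not independent of each other.

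**Figure D1:**
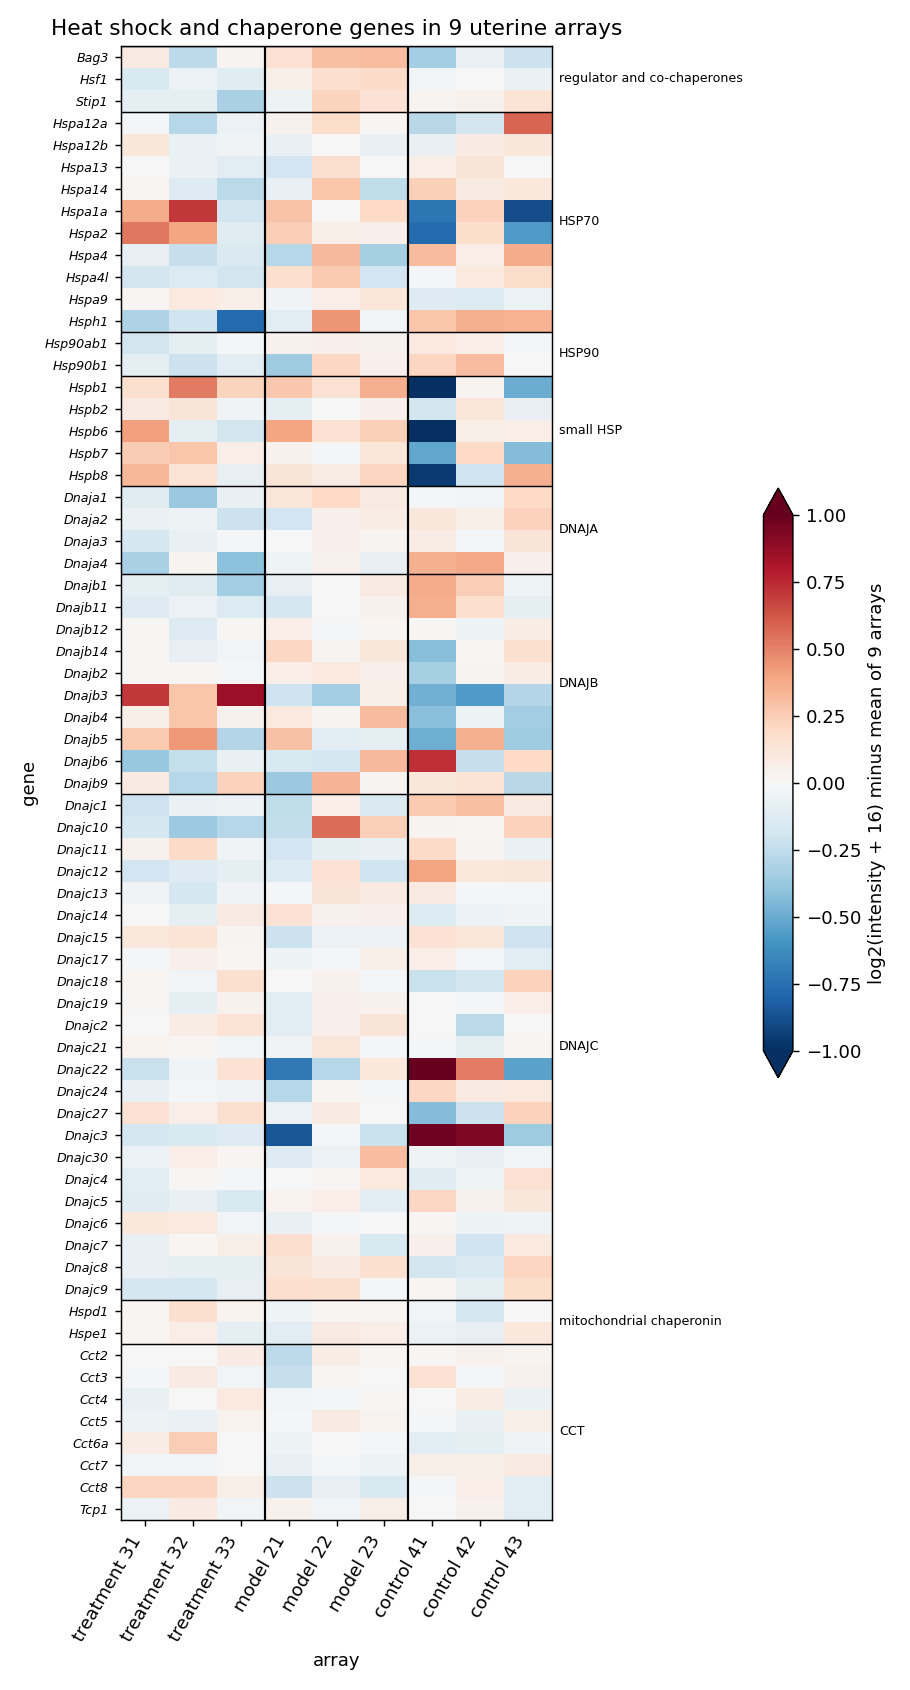
Heat map of the 67 tested genes (rows, by family) in the 9 arrays (columns: treatment, model, control), as log2(intensity + 16) minus the mean of the 9 arrays for that gene. The CCT and mitochondrial chaperonin rows are pale throughout, the small heat shock proteins are low in control 41, and Dnajc3 and Dnajc22 are high in controls 41 and 42 and not in control 43.

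**Figure D2:**
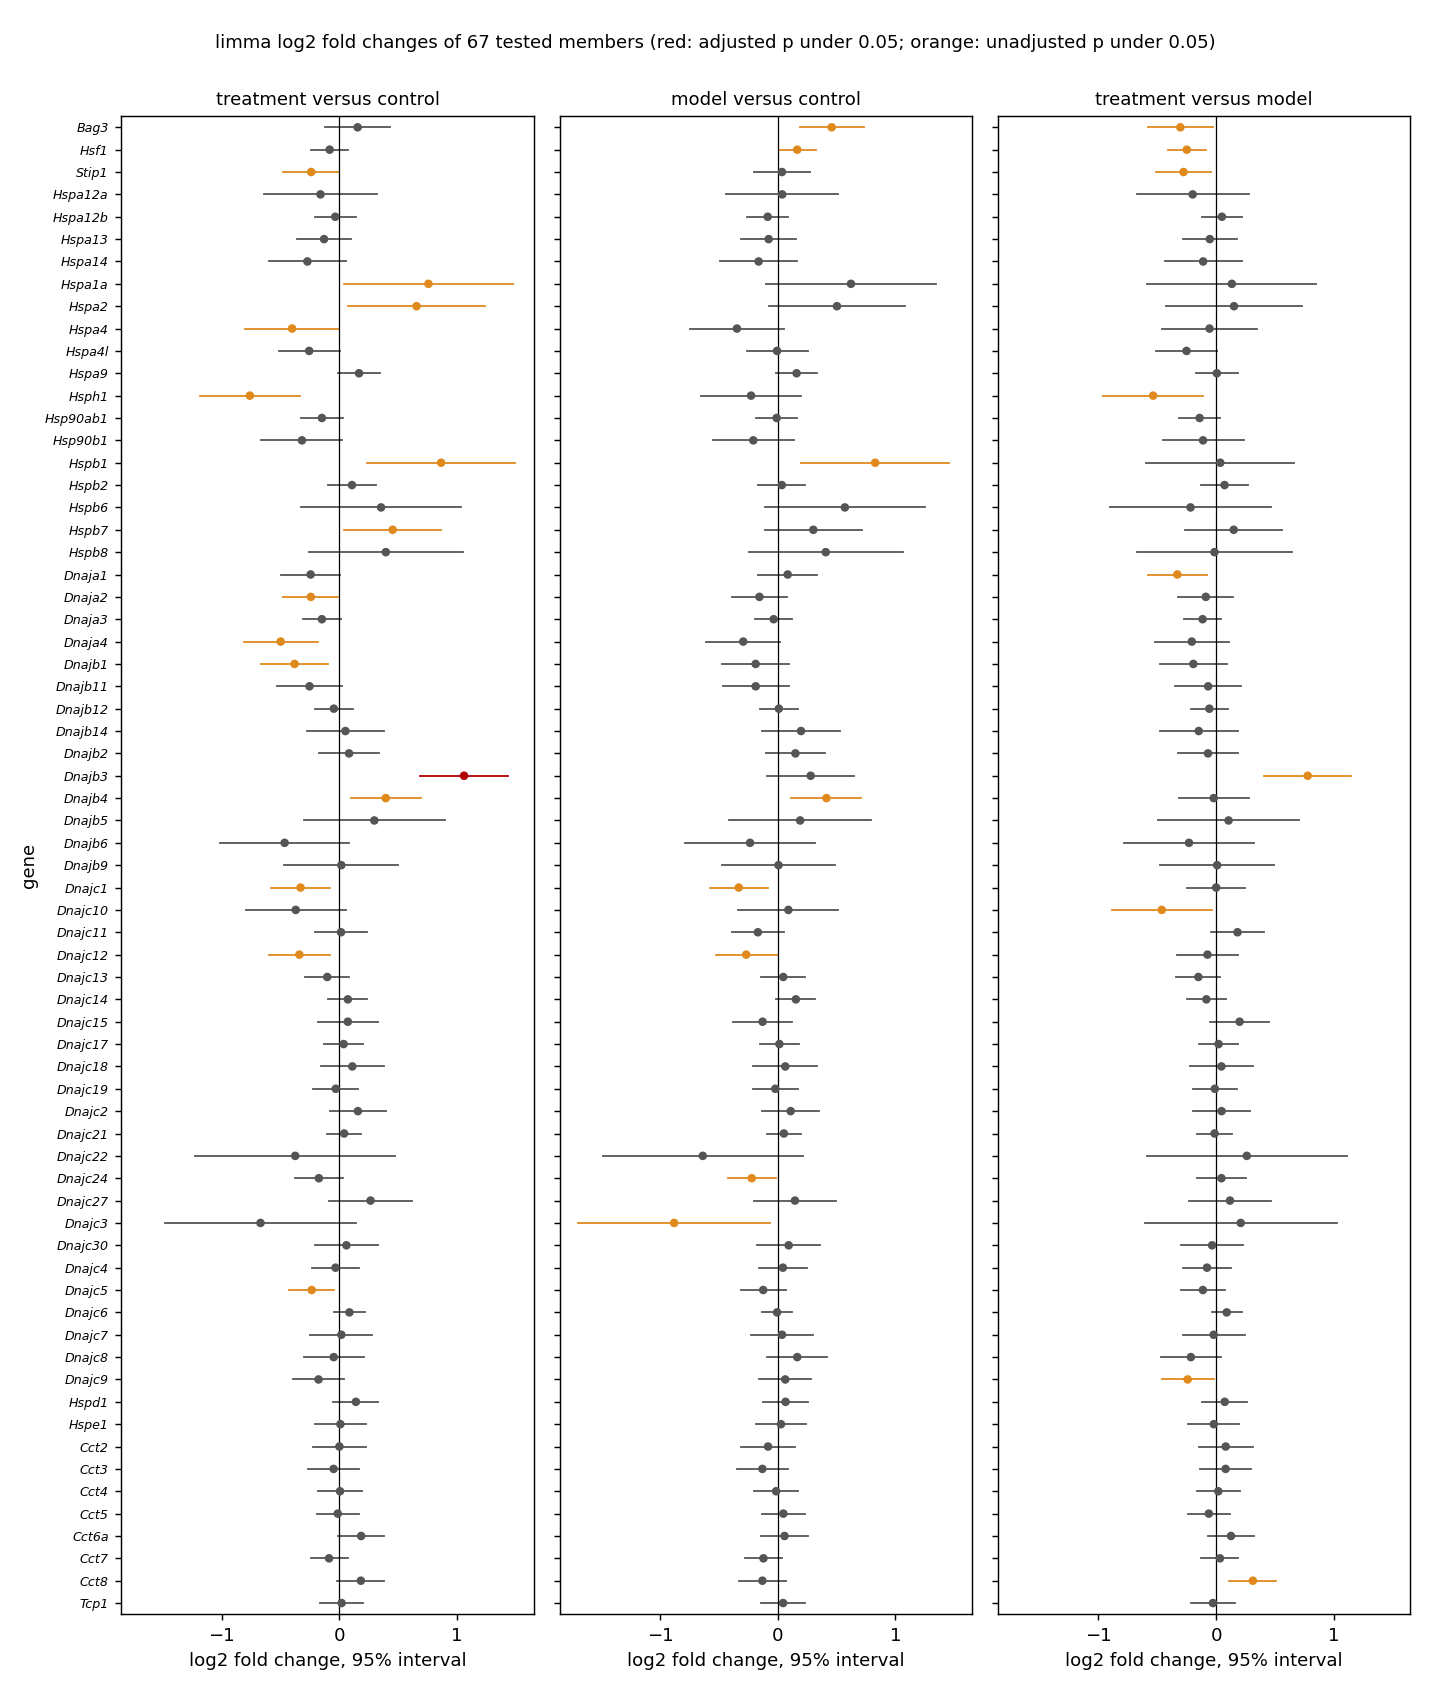
Log2 fold changes of the 67 tested genes with 95% confidence intervals from limma, for treatment against control, model against control and treatment against model arrays. Dnajb3 in treatment against control is the single gene at an adjusted p under 0.05, a dim gene that entered the test through the treatment arrays. Most intervals cross 0.

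Hsf1, the regulator, and the co-chaperones Bag3 and Stip1 were all lower in treatment than in model arrays, without overlap and without passing the adjusted threshold. Of all genes, 19.9% were lower without overlap in that comparison, and 11.8% after quantile normalization. Whether these genes still separated after that scaling is not given here. Hsf1 measured 47.2, 51.5 and 48.8 in treatment arrays, 57.1, 63.0 and 64.2 in model arrays and 53.0, 54.7 and 51.3 in control arrays. The 3 model arrays were the highest of the 9, and the treatment and control arrays overlapped. Its log2 fold change, given here and below with its standard error from limma, was -0.25 ± 0.07 in treatment against model arrays (adjusted p = 0.286, limma), 0.17 ± 0.07 in model against control arrays (adjusted p = 0.388) and -0.08 ± 0.07 in treatment against control arrays. An mRNA level of Hsf1 does not measure its activity, which is set largely by the state of the protein.

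Bag3 exchanges the nucleotide of HSP70 and, with Hspb8, sends damaged proteins of the muscle cytoskeleton to autophagy. It measured 502, 391 and 480.4 in treatment arrays, 526, 585 and 587 in model arrays and 369, 450.2 and 405 in control arrays. All 3 model arrays were above all others, and treatment 32 lay among the controls. Bag3 differed by 0.46 ± 0.12 on the log2 scale in model against control arrays, with a 95% interval of 0.19 to 0.73 and an adjusted p of 0.254 by limma, which is the smallest p of the 67 genes in that comparison. It was -0.30 ± 0.12 in treatment against model arrays and 0.16 ± 0.12 in treatment against control arrays. With single arrays left out, the model against control value stayed between 0.39 and 0.53, with 0.46 (adjusted p = 0.0674) without control 43.

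Stip1 joins HSP70 to HSP90 so that clients pass between them. It measured 100.3, 99.5 and 82.8 in treatment arrays, 103, 128 and 121 in model arrays and 110.3, 111 and 119.8 in control arrays. Treatment arrays were the 3 lowest of the 9. Stip1 differed by -0.28 ± 0.10 on the log2 scale in treatment against model arrays and -0.24 ± 0.10 against control arrays (limma, adjusted p = 0.307 and 0.286), while model and control arrays overlapped (0.04 ± 0.10). After quantile normalization the treatment against model values were -0.19 for Hsf1, -0.24 for Bag3 and -0.18 for Stip1.

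Among the HSP70 genes, 3 of 10 were higher and 7 lower in treatment than in control arrays, with a median log2 fold change of -0.14, and none passed. Of all genes, 57.8% had negative values in that comparison. Hsph1, a large HSP110-type relative that acts as a nucleotide exchange factor for HSP70, showed the largest drop of the 67 genes in that comparison. It measured 241, 261 and 169.7 in treatment arrays, 279, 418 and 298 in model arrays and 369.7, 395 and 389 in control arrays. Every treatment array was below every model and control array, and model 22 was the highest of the 9. The log2 fold change was -0.76 ± 0.18 in treatment against control arrays, with a 95% interval of -1.18 to -0.34 and an adjusted p of 0.124 by limma. It was -0.53 ± 0.18 in treatment against model arrays (adjusted p = 0.286) and -0.23 ± 0.18 in model against control arrays. The other Hsph1 probe set gave -0.57 against control and -0.25 against model arrays for treatment. Without control 43 the treatment against control value was -0.75 (adjusted p = 0.0805).

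The other HSP110-type genes, Hspa4 and Hspa4l, had negative log2 fold changes in treatment against both other groups. Hspa4 measured 71.3, 62.8 and 67.4 in treatment arrays, 59.7, 99.7 and 57.5 in model arrays and 98.9, 80.5 and 103 in control arrays, and treatment lay below control without overlap (log2 fold change -0.40 ± 0.17, adjusted p = 0.286, limma). Model 22 was as high as the controls while the other 2 model arrays were below the treatment arrays. Its log2 fold change was -0.06 ± 0.17 in treatment against model arrays. Hspa4l was -0.26 ± 0.11 in treatment arrays against control and -0.25 ± 0.11 against model (adjusted p = 0.292 and 0.354, limma), and model 23 was its lowest array.

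Hspa1a, the stress-inducible cytosolic HSP70, and Hspa2, an HSP70 best known from male germ cells, ran the other way. Hspa1a measured 632, 799 and 424 in treatment arrays, 593, 486 and 558 in model arrays and 286, 572 and 255 in control arrays. Controls 41 and 43 were the 2 lowest arrays, and control 42 lay within the range of the induced groups. Hspa1a differed by 0.76 ± 0.31 on the log2 scale in treatment against control (adjusted p = 0.273, limma) and 0.62 ± 0.31 in model against control arrays (adjusted p = 0.436), with 0.13 ± 0.31 between treatment and model arrays. Without control 43 the values against control were 0.54 and 0.41. Hspa1b is a near-identical copy, so the Hspa1a signal is uncertain and may include its RNA. Hspa2 measured 336, 306 and 209 in treatment arrays, 274, 238 and 237 in model arrays and 128, 259.6 and 149 in control arrays. As for Hspa1a, control 42 overlapped the induced groups and controls 41 and 43 did not (0.66 ± 0.25 in treatment and 0.50 ± 0.25 in model against control arrays, adjusted p = 0.248 and 0.436).

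Hspa9, the mitochondrial HSP70, measured 277, 293 and 284 in treatment arrays, 266, 286 and 298 in model arrays and 248, 246 and 261 in control arrays. Both induced groups lay above the controls without overlap, at 0.17 ± 0.08 and 0.16 ± 0.08 (adjusted p = 0.309 and 0.427, limma). The other Hspa9 probe set gave 0.24 and -0.09, so its sign differed in model against control arrays. The remaining tested HSP70 genes, Hspa12a, Hspa12b, Hspa13 and Hspa14, had log2 fold changes of -0.27 to 0.05 over the 3 comparisons, each with an unadjusted p above 0.05.

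The HSP90 genes differed little. Hsp90ab1, the constitutive cytosolic HSP90, measured 1103, 1175 and 1239.8 in treatment arrays, 1288, 1299 and 1288 in model arrays and 1341, 1314 and 1245 in control arrays. All 3 treatment arrays were below all others, by -0.15 ± 0.08 against control and -0.14 ± 0.08 against model arrays on the log2 scale (adjusted p = 0.357 and 0.414, limma). The other probe set of the gene gave -0.33 and -0.30 in the same comparisons, with treatment arrays at 1067, 1052 and 1048, model arrays at 1230, 1328 and 1359 and control arrays at 1229, 1294 and 1469. Hsp90b1, the HSP90 of the endoplasmic reticulum, was -0.32 ± 0.15 in treatment and -0.21 ± 0.15 in model against control arrays.

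**Figure D3:**
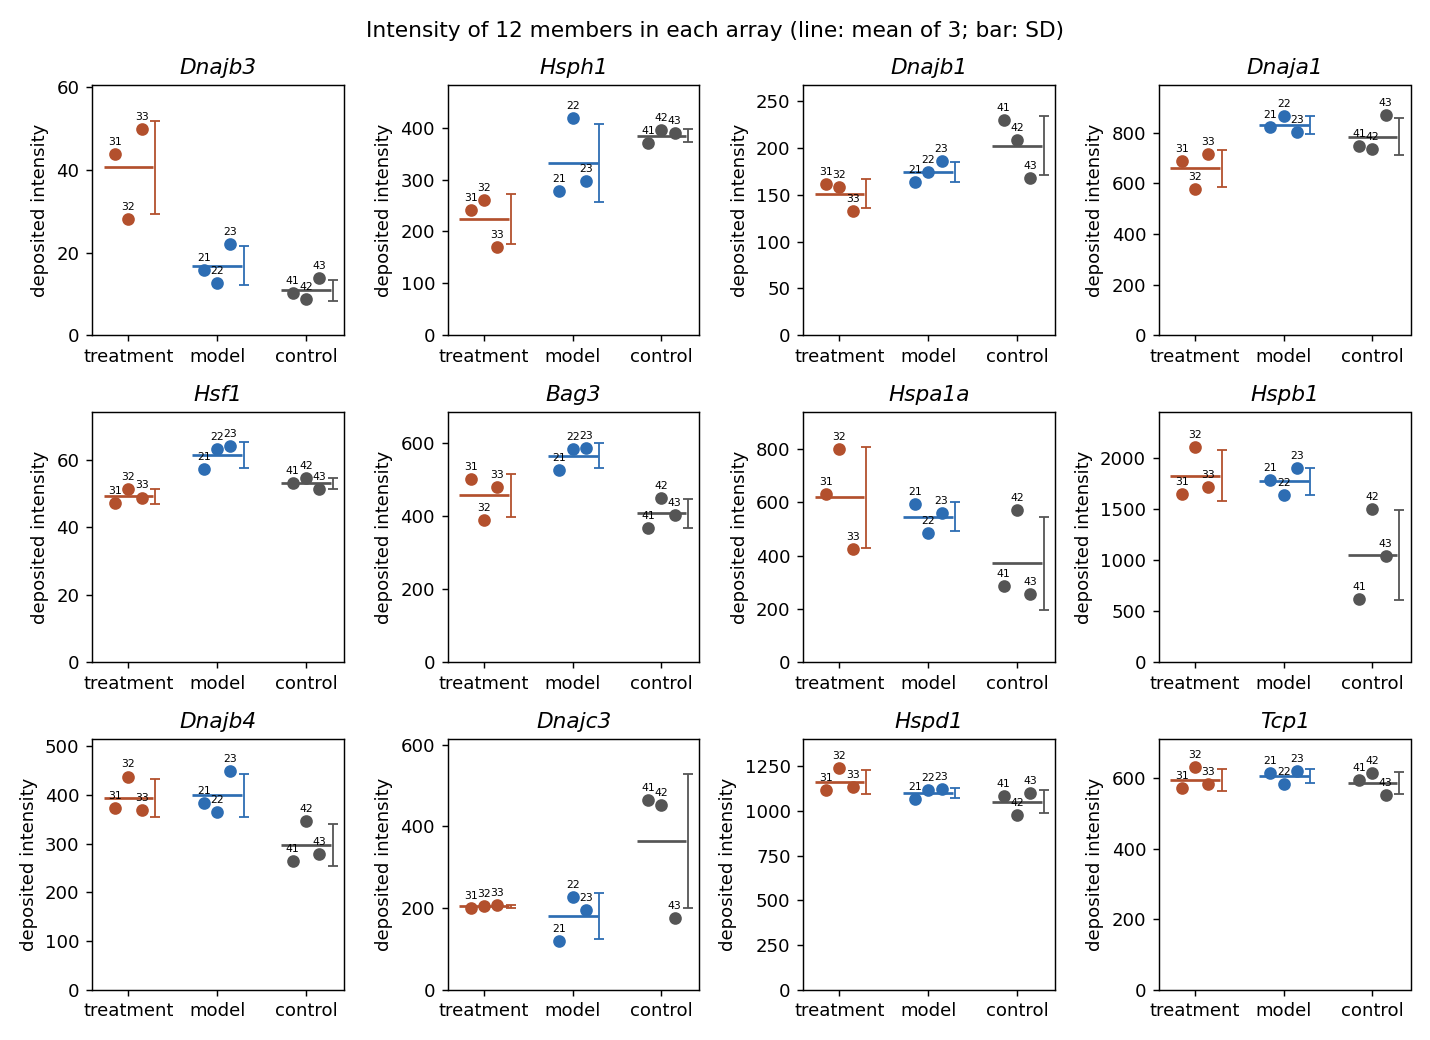
Deposited intensity of 12 genes in each array, numbered as in the labels, with the mean of 3 arrays (line) and SD (bar) in treatment, model and control. Hsph1 is lowest in the 3 treatment arrays, Hsf1 and Bag3 are highest in the 3 model arrays, and Dnajb3 is a dim probe set that stands out in treatment.

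Small heat shock proteins hold unfolding proteins without using ATP, and Hspb1, Hspb6, Hspb7 and Hspb8 are typical of muscle. All 5 tested genes were higher in treatment and in model than in control arrays, with median log2 fold changes of 0.40 and 0.41, and none passed. Over all genes, 57.8% and 46.5% of the values were negative in these comparisons. Hspb1 measured 1644, 2107 and 1717 in treatment arrays, 1777, 1635 and 1897 in model arrays and 619.7, 1499.8 and 1035 in control arrays. All 6 induced arrays were above all 3 controls, and control 41 was the lowest. The log2 fold change was 0.86 ± 0.27 in treatment against control (95% interval 0.24 to 1.49, adjusted p = 0.184, limma) and 0.83 ± 0.27 in model against control arrays (adjusted p = 0.325), and treatment and model arrays overlapped (0.04 ± 0.27).

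Hspb7, known from heart and muscle, was 0.45 ± 0.18 in treatment and 0.30 ± 0.18 in model against control arrays, with control 42 inside the range of the induced groups. Hspb6, which is linked to relaxation of smooth muscle, measured 481, 336 and 314 in treatment arrays, 475, 400.4 and 427 in model arrays and 165, 374 and 376 in control arrays. Hspb8, the partner of Bag3, measured 396, 344 and 294 in treatment arrays, 343, 330.4 and 365 in model arrays and 153, 269 and 405 in control arrays. In both genes control 41 was the lowest array of the 9. Controls 42 and 43 lay within the treatment range for Hspb6 and below the model arrays, and control 43 was the highest array of all for Hspb8. Hspb2 differed least, at 0.11 ± 0.09 and 0.04 ± 0.09.

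Smooth muscle markers moved with these genes. Of 11 markers, 11 were higher in treatment and 11 in model than in control arrays, where 57.8% and 46.5% of all genes had negative values. None of the markers passed, and their median log2 fold changes were 0.45 and 0.49. Their summed intensity was 21390 to 26040 in treatment arrays, 22620 to 27010 in model arrays and 13230 to 22020 in control arrays, with control 41 the lowest, and none was at 0. Without control 41, the medians were 0.05 in treatment and 0.17 in model against control arrays for the small heat shock proteins and 0.20 and 0.25 for the markers. Hspb1 alone was 0.53 and 0.50 without control 41, and 0.90 and 0.86 without control 43. The part of muscle content in the levels of the small heat shock proteins was not tested.

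**Figure D4:**
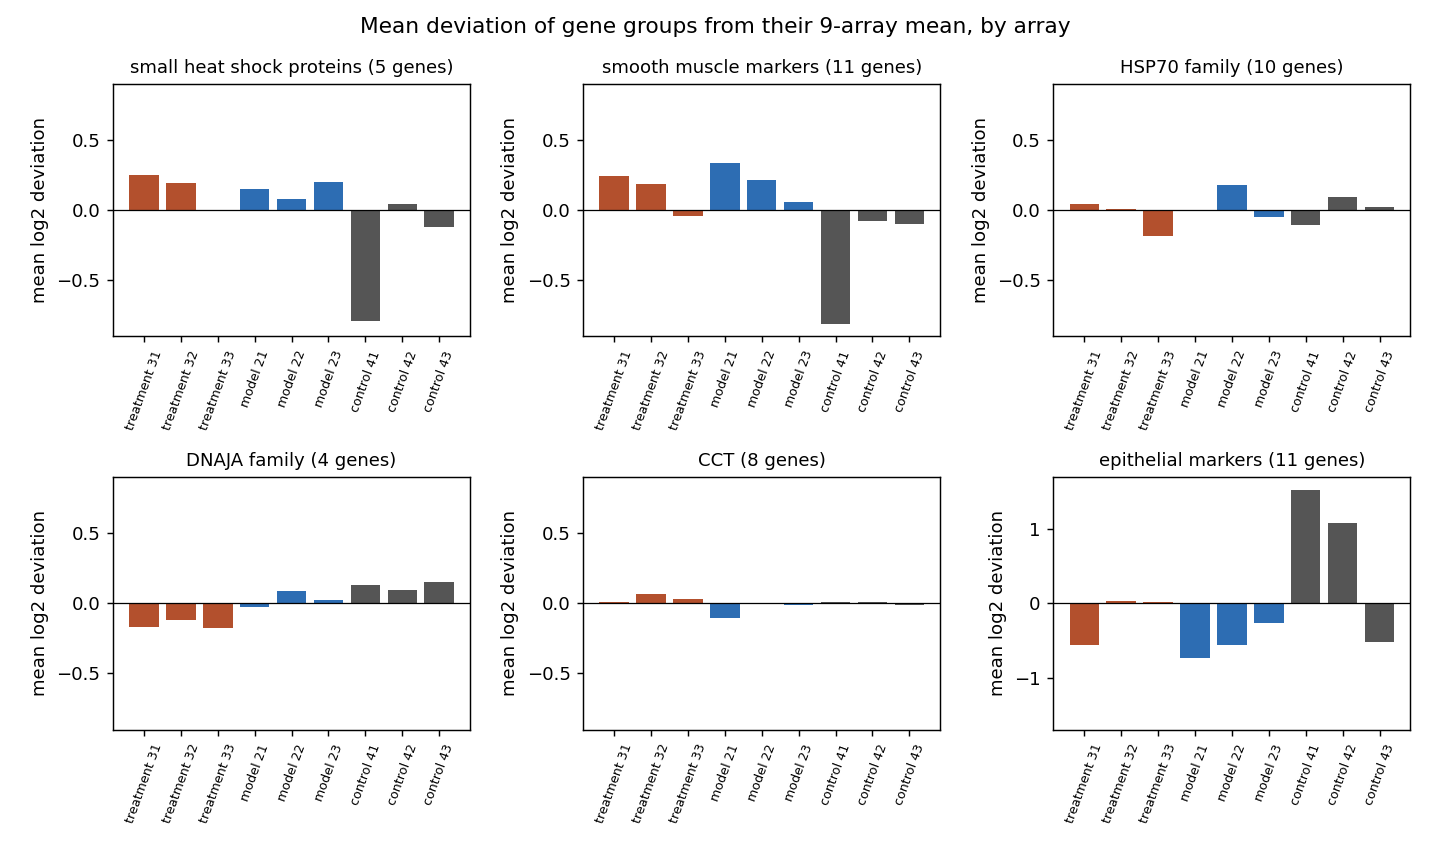
Mean deviation of gene groups from their own 9-array mean on the log2 scale, by array (treatment, model, control), for 4 chaperone families and for smooth muscle and epithelial markers. Control 41 is low both for small heat shock proteins (-0.79) and for smooth muscle markers (-0.81), while CCT stays within -0.10 to 0.07, and the epithelial panel has a wider axis.

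DNAJA proteins are the J-domain partners closest to bacterial DnaJ. All 4 genes were lower in treatment than in control arrays (median log2 fold change -0.24) and lower than in model arrays (median -0.16), also after quantile normalization and median centring, and none passed. Of all genes, 57.8% and 61.1% had negative values in the same comparisons in the deposited scaling. Dnaja1, which works with HSP70 on steroid receptors, measured 689, 577 and 714 in treatment arrays, 822, 867 and 801 in model arrays and 746, 737 and 868 in control arrays. Treatment lay below both other groups without overlap. Dnaja1 differed by -0.33 ± 0.11 on the log2 scale in treatment against model arrays (adjusted p = 0.286, limma) and -0.24 ± 0.11 in treatment against control arrays (adjusted p = 0.295). Its other probe set gave -0.41 and -0.07, with control 43 at 855 against 366 and 391 in controls 41 and 42.

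Dnaja4 measured 135, 178 and 127 in treatment arrays, 168, 179 and 163 in model arrays and 227, 231 and 181 in control arrays. Every control was above every other array. Dnaja4 differed by -0.50 ± 0.14 on the log2 scale in treatment (adjusted p = 0.142, limma) and -0.29 ± 0.14 in model against control arrays (adjusted p = 0.423), and without control 43 the treatment value was -0.60 with an adjusted p of 0.0388. Dnaja2, another cytosolic partner of HSP70, was -0.24 ± 0.10, and the mitochondrial Dnaja3 was -0.15 ± 0.07, in treatment against control arrays.

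Among the DNAJB genes the single gene that passed was Dnajb3, an HSP40-type J-domain protein, in treatment against control arrays. It measured 43.8, 28.2 and 49.99 in treatment arrays, 15.7, 12.7 and 22.0 in model arrays and 10.2, 8.75 and 13.8 in control arrays. All treatment arrays were above all model and control arrays, and model and control overlapped. The log2 fold change was 1.06 ± 0.16 in treatment against control arrays, with a 95% interval of 0.69 to 1.43 and an adjusted p of 0.0346 by limma. It was 0.78 ± 0.16 in treatment against model arrays (adjusted p = 0.286) and 0.28 ± 0.16 in model against control arrays.

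Dnajb3 is a dim signal whose call depended on the arrays in the fit. It reached the filter's level in 4 arrays only, the 3 of treatment and model 23, so it entered the test through the group in which it was high. The call was lost in 6 of the 9 fits that left out 1 array (adjusted p 0.0612 to 0.17), in the fit of the 6 treatment and control arrays alone (0.0645), and the gene was not tested under a filter at the 60th percentile. In the GRCr8 annotation Dnajb3 lies within the cluster of Ugt1a genes, on the opposite strand. The probe set with the higher signal that carries 8 Ugt1a symbols measured 1045, 1511 and 1295 in treatment arrays, 773, 1082 and 1343 in model arrays and 1165, 1037 and 742 in control arrays. Treatment 32 was the highest array for the Ugt1a probe set and the lowest of the treatment arrays for Dnajb3, and any part of Ugt1a RNA in the Dnajb3 signal was not tested.

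Dnajb1, the classical HSP40 that is induced with HSP70, measured 161, 158 and 133 in treatment arrays, 164, 174 and 186 in model arrays and 229, 209 and 168 in control arrays. Treatment was below both other groups without overlap. Dnajb1 differed by -0.38 ± 0.13 on the log2 scale in treatment against control arrays (adjusted p = 0.197, limma), and without control 43 it was -0.50 (adjusted p = 0.037). The other probe set gave -0.36 against control and -0.03 against model arrays, and there treatment overlapped both groups. It measured 70.6, 60.8 and 67.3 in treatment arrays, 56.5, 72.2 and 76.7 in model arrays and 103.3, 105.8 and 65.1 in control arrays.

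Dnajb4, a J-domain protein of muscle and other tissues, measured 374, 438 and 369.6 in treatment arrays, 384, 365 and 450 in model arrays and 265, 346 and 279 in control arrays. All 6 induced arrays were above all 3 controls, by 0.39 ± 0.13 in treatment and 0.41 ± 0.13 in model arrays on the log2 scale (adjusted p = 0.197 and 0.307, limma). Without control 41 these values were 0.32 and 0.34. The other 7 tested DNAJB genes, among them Dnajb6, which restrains protein aggregation, and Dnajb9 and Dnajb11 of the endoplasmic reticulum, had an unadjusted p above 0.05 in each comparison.

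DNAJC proteins share the J domain alone and serve many sites in the cell. Of 23 tested genes, 3 were lower and none higher at an unadjusted p under 0.05 in treatment against control arrays, 4 lower in model against control arrays and 2 lower in treatment against model arrays, and none passed. As shares these were 13%, 17.4% and 8.7%, beside 10.8%, 6.08% and 10.1% of all genes that were lower in the same comparisons. Without model 21, no gene of the set was lower at that level in model against control arrays. The share of all genes in that fit is not given here, and a fit with fewer arrays is less precise. Whether the 17.4% turned on that array was not tested. Dnajc3, an HSP70 partner inside the endoplasmic reticulum that is induced when proteins misfold there, measured 201, 205 and 208 in treatment arrays, 119.5, 227 and 194 in model arrays and 465, 451 and 176 in control arrays. Controls 41 and 42 were above the 6 induced arrays, while control 43 was below all but model 21. Dnajc3 differed by -0.67 ± 0.36 on the log2 scale in treatment (adjusted p = 0.363, limma) and -0.88 ± 0.36 in model against control arrays (adjusted p = 0.382). Without control 43 it was -1.10 in treatment (adjusted p = 0.026) and -1.31 in model arrays (adjusted p = 0.013). Without model 21 the model against control value was -0.63, and the difference between treatment and model arrays, 0.21 with all arrays, was -0.04.

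Dnajc22, a membrane J-domain protein, measured 33.6, 40.5 and 48.0 in treatment arrays, 19.2, 31.6 and 46.1 in model arrays and 102, 66.4 and 24.03 in control arrays. As for Dnajc3, controls 41 and 42 were the highest arrays and control 43 was not. Dnajc22 fell in model arrays against controls 41 and 42 (-1.07, adjusted p = 0.0334), and with all controls it did not pass (-0.64 ± 0.37). Without model 21 it was -0.43. Of 11 epithelial markers, 10 were lower in treatment and 11 in model than in control arrays, beside 57.8% and 46.5% of all genes. None of these markers passed. In 7 of the 11, keratins among them, control 43 was below controls 41 and 42 and not above all induced arrays, as in Dnajc3 and Dnajc22. The claudins Cldn3 and Cldn4 were highest of all in control 43, and Epcam and Prom1 were above every induced array there. Their summed intensity was 4027 to 6256 in treatment arrays, 3525 to 4660 in model arrays and 4635 to 18970 in control arrays, with none at 0. The part of epithelial content or of the cycle in Dnajc3 and Dnajc22 was not tested.

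Dnajc1, a J-domain protein of the endoplasmic reticulum membrane, was lower in both induced groups. It measured 108, 120.3 and 122 in treatment arrays, 104, 134 and 113 in model arrays and 155, 160.5 and 136 in control arrays. The controls were the 3 highest arrays. The log2 fold change was -0.33 ± 0.11 in treatment and -0.33 ± 0.11 in model against control arrays (adjusted p = 0.196 and 0.317, limma), whereas another probe set of the gene, much dimmer, gave 0.04 and -0.06. Dnajc12, a co-chaperone of aromatic amino acid hydroxylases, was -0.34 ± 0.11 and -0.27 ± 0.11 in the same comparisons, and Dnajc5, the cysteine string protein of secretory vesicles, was -0.23 ± 0.08 and -0.12 ± 0.08.

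Dnajc24, which takes part in making diphthamide, measured 32.9, 35.2 and 34.2 in treatment arrays, 26.5, 36.5 and 35.3 in model arrays and 43.4, 38.9 and 39.3 in control arrays. The controls were again the 3 highest arrays, by -0.22 ± 0.09 in model against control arrays (adjusted p = 0.383, limma). Model 21 was the lowest array, and without it Dnajc24 was not lower at an unadjusted p under 0.05 in that comparison. In treatment against model arrays, Dnajc10, a disulphide reductase of the endoplasmic reticulum, was -0.46 ± 0.19, with its other probe set at 0.16, and Dnajc9, a histone co-chaperone, was -0.24 ± 0.10 (adjusted p = 0.325 for both genes).

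By family median, the folding chambers were the most even members of the set. CCT is the cytosolic ring that folds actin and tubulin, and the median spread of its 8 genes within groups was 0.07 on the log2 scale, against 0.15 over all genes tested and 0.38 for the small heat shock proteins. Single CCT genes ranged from 0.02 (Cct7) to 0.11 (Cct2), and Hsf1, Hspa9 and Hsp90ab1 were as even as most of them, at 0.05 to 0.06. Tcp1 measured 570.2, 629.8 and 584 in treatment arrays, 614, 583 and 619 in model arrays and 594, 614 and 551 in control arrays. The 3 groups overlapped, and its log2 fold changes were 0.02, 0.05 and -0.03, each with an SE of 0.08. The 95% interval in treatment against control arrays was -0.17 to 0.21. Cct8 had the only CCT value past an unadjusted p of 0.05, with 257, 256 and 228 in treatment arrays, 186, 206 and 195 in model arrays and 216, 229 and 201 in control arrays. Treatment was above model without overlap, at 0.31 ± 0.09 (adjusted p = 0.286, limma), and its other probe set gave 0.03. After quantile normalization the CCT median in treatment against model arrays was 0.15, against 0.06 in the deposited scaling.

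Hspd1 and Hspe1 encode the ring and the lid of the mitochondrial chaperonin. Hspd1 measured 1116, 1238 and 1132 in treatment arrays, 1069, 1117 and 1121 in model arrays and 1082, 977 and 1098 in control arrays. Treatment was above control without overlap, at 0.14 ± 0.08 (adjusted p = 0.41, limma). Hspe1 measured 983, 1017 and 911 in treatment arrays, 901, 1032 and 1018 in model arrays and 931, 917 and 1046 in control arrays. Its groups overlapped in every comparison, with log2 fold changes of 0.01, 0.03 and -0.02. Hsph1 and Dnaja1, whose windows hold 3-unit elements as well, had log2 fold changes of -0.53 and -0.33 in treatment against model arrays, beside 0.07 for Hspd1 and -0.02 for Hspe1. These differences between genes were not tested.

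Genes that work with these chaperones were taken from 3 further lists. Of 39 other cytosolic co-chaperones and regulators, 37 were tested and none passed in any comparison, with 4 higher and 1 lower at an unadjusted p under 0.05 in treatment against control arrays, 4 and 0 in model against control arrays, and 0 and 3 between treatment and model arrays. As shares these were 10.8% and 2.7%, 10.8% and 0%, and 0% and 8.11%, beside 6.54% and 10.8%, 6.37% and 6.08%, and 4.57% and 10.1% of all genes. Without control 43, Chordc1, a co-chaperone of HSP90, fell in treatment (-0.63, adjusted p = 0.0326, limma) and in model arrays (-0.53, 0.039), and Fkbp4, an HSP90-binding prolyl isomerase of steroid receptor complexes, and Vcp, an ATPase that extracts proteins for degradation, fell in model arrays (-0.52 and -0.40, adjusted p = 0.0446 and 0.0305), where 6.56% and 12.6% of all genes passed in those comparisons. Ppid, an HSP90-binding prolyl isomerase, was -0.28 ± 0.08 in treatment against model arrays (adjusted p = 0.286, limma), with 328, 300.1 and 314 in treatment and 369, 409.6 and 376 in model arrays, while the factor Hsf2 was -0.24 ± 0.09. Cryab, a small heat shock protein named as a crystallin, was 0.90 ± 0.36 in model against control arrays, and measured 75.2 in control 41.

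Of 21 genes of endoplasmic reticulum and mitochondrial protein quality control, all were tested and none passed, with 0 higher and 2 lower at an unadjusted p under 0.05 in each comparison with control and 0 in treatment against model arrays. The 2 lower genes are 9.52% of the list, beside 10.8% of all genes in treatment and 6.08% in model against control arrays. The log2 fold change was negative for 17 of 21 in treatment and 15 of 21 in model against control arrays, beside 57.8% and 46.5% of all genes, with medians of -0.16 and -0.17, and 13 of 21 were negative in treatment against control arrays after quantile normalization. Pdia3, a disulphide isomerase, measured 847, 820.0 and 913 in treatment arrays, 587, 817 and 678 in model arrays and 1244, 1104 and 748 in control arrays, and was -0.54 ± 0.19 in model against control arrays (adjusted p = 0.341, limma). Like Dnajc3, it was highest in controls 41 and 42. Without control 43, Pdia3 and Pdia6, another disulphide isomerase, fell in model arrays (-0.76 and -0.67, adjusted p = 0.0182 and 0.0438, limma), and Clpb, a mitochondrial disaggregase, rose (0.49, adjusted p = 0.0107). In that fit 12.6% of all genes passed, so these calls are not read as a result about the list. Without model 21, Pdia3 was -0.43 in model against control arrays.

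Of 21 textbook targets of Hsf1, 18 were tested, 12 of which are described above, and none passed. In treatment against model arrays 12 of 18 had a negative log2 fold change and 4 were lower at an unadjusted p under 0.05 (Dnaja1, Hsph1, Stip1 and Bag3), with none higher. All genes had 61.1% negative values and 10.1% lower at that level, so the 12 (66.7%) were near that share, and the 4 are 22.2%. After quantile normalization 8 of 18 were negative (44.4%, beside 48.1% of all genes) and 3 were lower (16.7%, beside 5.55%). In model against control arrays 3 were higher (Bag3, Hspb1 and Cryab), which is 16.7%, and none lower, beside 6.37% and 6.08% of all genes. Control 41 was the lowest array for each of these 3. In treatment against control arrays 3 were higher and 4 lower (16.7% and 22.2%, beside 6.54% and 10.8% of all genes). Without control 43, Dnajb1 and Chordc1 fell in treatment and Chordc1 and Fkbp4 in model arrays, as given above. Against controls the named targets stood on both sides of 0: Hspb1 and Hspa1a had positive, and Hsph1 and Dnajb1 negative, log2 fold changes in treatment arrays.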

How the data were processed

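Total RNA of rat uterine tissue was hybridised to 9 Affymetrix arrays. The authors' deposited table holds 1 linear intensity per probe set and array for 31099 probe sets. The submitters' processing notes name MAS5, which summarises probes into probe sets. How it was set and scaled, and its detection calls, were not given in the sources. The number of arrays limits the precision.

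Affymetrix controls (57 probe sets) were left out. Symbols came from the platform annotation, which can be old: 20826 probe sets had 1 symbol, 436 several and 9780 none. All 72 member symbols matched RefSeq. Probe sets at or above the 40th percentile of their array in at least 3 arrays were kept, and each gene was read from its brightest kept 1-symbol probe set. Values were log2(intensity + 16), which understates changes of dim genes. The 3 groups, taken from the condition in the labels, were fitted together with limma 3.58.1 in R 4.3.3 (lmFit, eBayes with a variance trend, two-sided), with Benjamini-Hochberg adjustment over all 10973 genes at a threshold of 0.05. The fit was tested on simulated data.

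The members and lists were chosen with earlier results of these data known. Values in each array are given for genes that passed, the 6 smallest p in each comparison, and Hsf1, Hspa1a, Hsph1, Hspb1, Hsp90ab1, Dnaja1, Dnajb1, Bag3, Stip1, Hspd1, Hspe1 and Tcp1. Some further genes were added for their pattern. Alternatives were 1 or 64 added before log2, other scalings, other filters, no variance trend or a robust one, the 6 compared arrays alone, the mean of probe sets, a replicate block and each array left out. Promoter windows and motifs were read from RefSeq windows of GRCr8. Python 3.11.15 and matplotlib 3.10.9 drew the figures.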

Additional observations from a re-analysis of the deposited data

How the results depend on the processing

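No member passed in treatment against model arrays under any alternative run. Leaving out control 43 raised the share of all genes that passed from 0.51% to 6.56% in treatment and from 0.0273% to 12.6% in model against control arrays. In treatment against control arrays the count of members that passed was 1 with all arrays, 0 under the 60th percentile filter, 0 with the 6 compared arrays alone and 0 to 5 with single arrays left out, with the 5 without control 43. In model against control arrays the count was 0, and 0 to 3 with single arrays left out, with the 3 again without control 43. The cause was not tested. The median log2 fold change of the tested members became 0.0461 in treatment against control arrays and 0.0477 against model arrays under quantile normalization. With single arrays left out the median was -0.00744 (without model 22) to 0.0415 in model against control arrays, -0.0620 (without model 21) to 0.0141 (without model 22) in treatment against model arrays and -0.0445 to 0.00 in treatment against control arrays. Of 57 values of named members, 44 kept their sign under every alternative run and 13 did not. The largest of the 13 were 0.21 for Dnajc3 and 0.13 for Hspa1a in treatment against model arrays, each with 1 change of sign. Array numbers are not shared between groups. A block on their last digit is therefore arbitrary and adds no support to the call of Dnajb3. With it Dnajb3 passed (adjusted p = 0.015, limma), and 27 of all genes passed, beside 56 without it. No paired analysis was possible because the labels do not tie arrays of different groups together.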

Other observations

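Probe sets with several symbols were assigned to no gene. The one annotated to both Hspa1b and Hspa1a measured 429, 559 and 347 in treatment arrays, 374, 375 and 364 in model arrays and 351, 543 and 199 in control arrays. Its differences on the log2 scale were 0.36 in treatment against control and 0.13 in model against control arrays, beside 0.76 and 0.62 for the probe set annotated to Hspa1a alone. In both, control 42 lay above the other 2 controls. The 2 probe sets annotated to Hsp90aa1 and a pseudogene had log2 differences of -0.13 and -0.25 in treatment against control arrays and -0.05 each in treatment against model arrays. The probe set annotated to Hspa8 and another gene differed by -0.05 in treatment against control, -0.18 in model against control and 0.13 in treatment against model arrays.

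Probe sets of 1 gene differed in sign for some members. In treatment against model arrays, the 2 probe sets of Cct5 gave -0.06 and 0.26 on the log2 scale, and those of Dnajc10 gave -0.46 and 0.16. Both probe sets of Hspa2 were positive in treatment against control arrays (0.66 and 0.49), as were both of Hspb8 (0.40 and 0.18) and of Hspb7 (0.45 and 0.27).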
